A study of Homo sapiens with 12 samples.

Results

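The NF-κB system was read from 10 genes in a table of 43769 genes measured by RNA-seq in 12 libraries. They were taken by name: the 5 subunits RELA, RELB, REL, NFKB1 and NFKB2, the 3 inhibitors NFKBIA, NFKBIB and NFKBIE, and the feedback genes TNFAIP3 and BIRC3. All 10 rows were found, and 9 of them had enough counts to be tested. The libraries came from SK-N-DZ, a MYCN-amplified human neuroblastoma line, as 1 clone carrying a doxycycline-inducible short hairpin RNA against ARID1A, a subunit of the SWI/SNF chromatin remodeller. Group C was untreated, group D had doxycycline for 4 days, group I had interferon gamma (IFNγ) for 24 h, and group DI had both, with 3 replicates in each. The labels give C and I as wild type and D and DI as shARID1A. No library had doxycycline without the hairpin, so the drug, the hairpin and the loss of ARID1A cannot be told apart. Nothing in the sources used here says that replicates were separate cultures, so p-values measure the spread between these libraries, which may be technical.

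NF-κB is a family of dimeric transcription factors that inhibitor proteins, the IκBs, hold in the cytoplasm. Signals from receptors such as those for tumor necrosis factor activate the IκB kinase, which marks the IκB for destruction and frees the dimer to enter the nucleus. Activity is therefore set largely at the protein level, while transcripts of NFKBIA, TNFAIP3, BIRC3, NFKB1, NFKB2 and RELB are known targets of the pathway and are widely read as signs of it. IFNγ signals through a separate route that starts with JAK kinases.

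The libraries held 16469832 to 21790869 counts, so that 3 counts stood for 0.135 to 0.187 CPM, counts scaled to a library of 1000000. ARID1A itself read 197, 186 and 165 CPM in C and 192, 203 and 194 CPM in I. It read 197, 159 and 158 CPM in the libraries labelled D, and 151, 133 and 148 CPM in those labelled DI. The library labelled D 1 was thus at the level of the highest control, and the difference passed the test neither in D vs C (log2 fold change −0.09, SE 0.109, adjusted p = 0.788) nor in DI vs I (−0.44, SE 0.109, adjusted p = 0.115; edgeR). IFNγ acted in every library that had it: IRF1 read 1.81 to 2.90 CPM without and 342 to 442 CPM with the cytokine. The share of counts from mitochondrial genes was 3.90% to 6.79% in C and I, and 1.85% to 4.21% in D and DI, with DI 1 at the top of the latter. All 11 markers of adrenergic neuroblastoma cells had counts in every library, though TH ranged from 12 counts in D 3 to 1199 in C 3. CD3E, MS4A1 and PECAM1, which mark T cells, B cells and endothelium, had no count in any library. The 8 immune cell markers summed to 0.359 to 1.44 CPM a library. Of these, CD14 had 3 to 17 counts in every library, and PTPRC had 16 counts in DI 3 and at most 3 elsewhere. The 6 stromal and glial markers summed to 9.66 to 46.6 CPM in C and 10.7 to 40.8 CPM in I. With doxycycline the sum was 10.5 to 35.8 CPM (D) or 10.3 to 34.2 CPM (DI). Most of that was PDGFRA, which was detected in every library and was highest in replicate 2 of each group, with LUM at 7 to 97 counts.

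Expressed per kilobase of merged exon, the only scale on which genes are compared here, the members spanned a wide range, as the plot of levels per kilobase shows. RELA was highest, at 17.9 ± 1.32 CPM per kb (SD, n = 12 libraries). The 3 inhibitors followed, with NFKBIA at 11.1 ± 2.05, NFKBIB at 8.65 ± 1.79 and NFKBIE at 6.28 ± 1.45 CPM per kb. The precursor-type subunits were lower, NFKB2 at 2.81 ± 0.939 and NFKB1 at 2.08 ± 0.317 CPM per kb. REL stood at 0.727 ± 0.0593, RELB at 0.412 ± 0.126, BIRC3 at 0.133 ± 0.0992 and TNFAIP3 at 0.0239 ± 0.0148 CPM per kb. Only 3 steps in this order were free of overlap over the 12 libraries: RELA over NFKBIA, NFKB1 over REL, and REL over RELB. All other neighbours had overlapping ranges, and TNFAIP3, the classical feedback deubiquitinase, lay close to the detection limit.

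**Figure D1:**
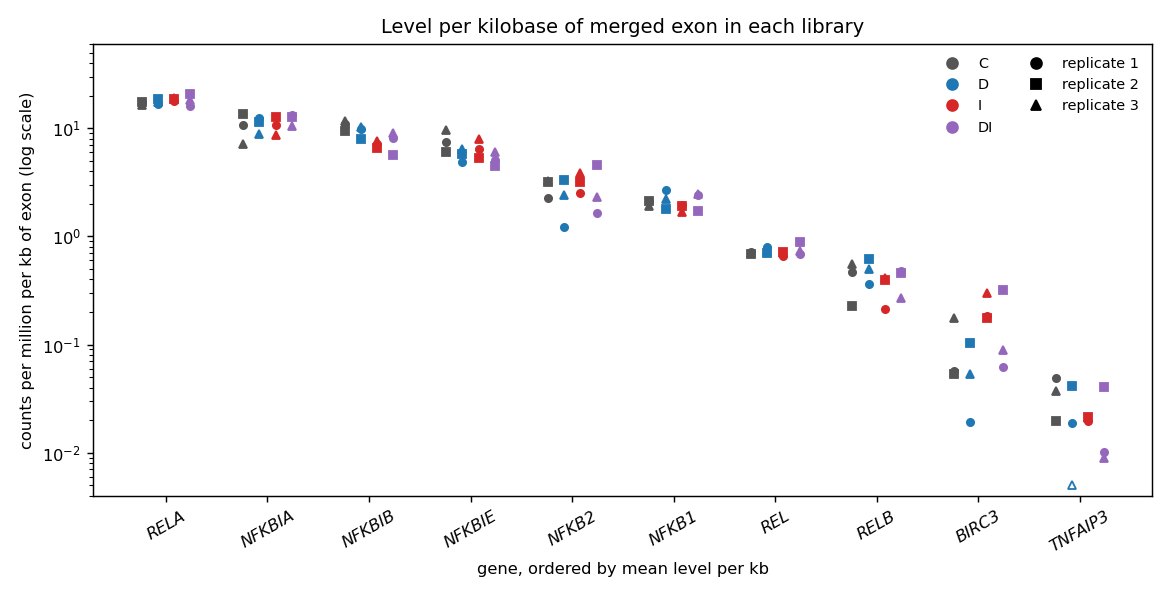
CPM per kilobase of exon (log scale) for the 10 genes, ordered by their mean, with a point for each of the 12 libraries. Colors give the group, shapes give the replicate number, and the open symbol stands for a count of 0; RELA lies above all other members in every library.

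Because several members are known κB-driven genes, their promoters are shown with the letters searched. RefSeq promoters (GRCh38.p14, 250 bases before to 50 after a start) were at hand for 8 of the 10 members, not for RELB and NFKBIE. Read on both strands, so that a match may be printed in either orientation, the κB pattern GGGNNTTNCC was present in 7 of these 8 genes, all but RELA, against 6.85% of all genes with a promoter. The IFNγ-activated sequence TTCNNNGAA and the interferon-stimulated element GAAANNGAAA were each present in 1 of the 8, RELA, against 9.38% and 4.38% of all genes. A match is a description of letters, not evidence of a bound site. The patterns are strict, so lack of a match does not mean lack of a site. The windows below, 10 bases to either side of a match in capitals, lie at chr2:60881518-60881547 for REL, chr4:102501300-102501329 for NFKB1, chr10:102394461-102394490 for NFKB2, chr19:38899931-38899960 for NFKBIB, chr6:137867182-137867211 for TNFAIP3 and chr11:102317275-102317304 for BIRC3, all on the plus strand; each shows the first match in the first promoter entry of that gene that holds one, to set the 6 genes beside each other.
REL: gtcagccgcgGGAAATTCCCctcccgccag
NFKB1: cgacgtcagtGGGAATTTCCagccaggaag
NFKB2: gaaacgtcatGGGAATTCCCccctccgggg
NFKBIB: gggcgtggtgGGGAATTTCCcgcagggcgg
TNFAIP3: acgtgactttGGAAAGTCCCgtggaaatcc
BIRC3: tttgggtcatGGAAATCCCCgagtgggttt

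The promoter of NFKBIA is given whole, for the 250 bases before its start (chr14:35404750-35404999, minus strand, written 5′ to 3′), since NFKBIA is the inhibitor most used as a readout. Its κB match, in capitals, begins 81 bases before the start.
NFKBIA: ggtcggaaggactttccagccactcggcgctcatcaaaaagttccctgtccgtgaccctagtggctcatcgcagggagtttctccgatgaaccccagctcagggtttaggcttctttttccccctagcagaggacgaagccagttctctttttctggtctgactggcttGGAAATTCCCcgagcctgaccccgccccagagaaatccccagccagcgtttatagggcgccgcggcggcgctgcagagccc

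The first question was whether IFNγ changed the NF-κB transcripts, without doxycycline (I vs C) and with it (DI vs D). No member passed the test in either comparison (0 of 9 tested, edgeR quasi-likelihood test, adjusted p under 0.05 over 15828 genes), where 2.21% and 1.72% of all tested genes did. With the replicate number as a block, 1 member passed in I vs C, NFKBIB, and 0 in DI vs D, beside 6.02% and 4.46% of all genes. DESeq2 called 0 of the 9, beside 2.93% and 2.3% of all genes it tested. At an unadjusted p under 0.05 edgeR had 1 member in I vs C, NFKBIB, and 0 in DI vs D. The median log2 fold change of the 9 was −0.02 in I vs C and 0.06 in DI vs D, beside −0.0081 and −0.012 over all tested genes. In I vs C, 3 of the 9 members had groups that did not overlap, as did 15.1% of all tested genes, and in DI vs D 0 of the 9 did, beside 9.55%. In bulk libraries, a change in some of the cells and a smaller change in all of them cannot be told apart. Values by library are drawn in the plot of the members' CPM, and the differences with their intervals in the plot of the log2 fold changes.

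**Figure D2:**
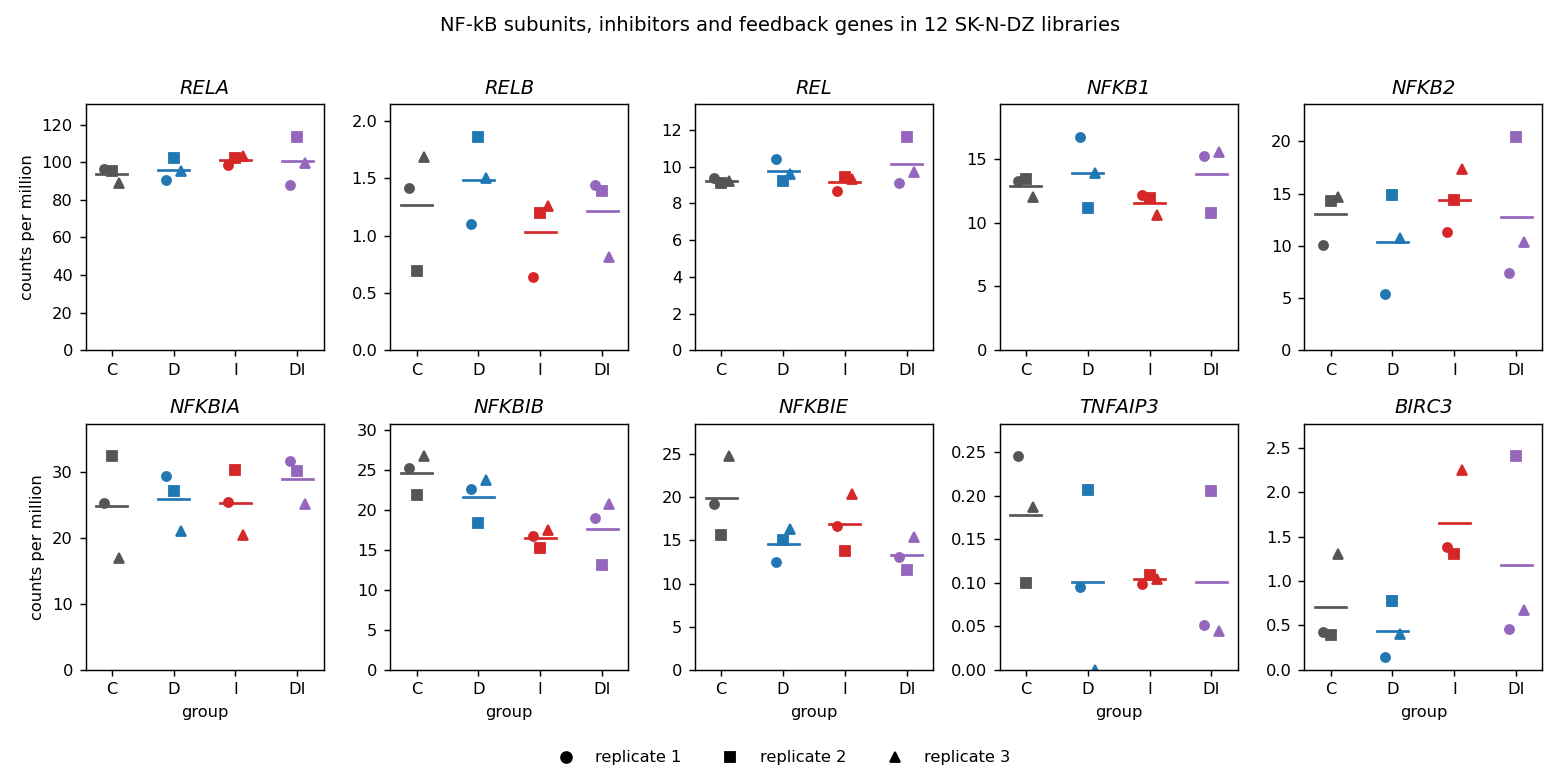
CPM of each member (linear axes from 0, 1 panel a gene) in the 4 groups, with a point for each library and a bar at the group mean. The I and DI libraries of NFKBIB lie below all C libraries, while for most other members the 4 groups overlap.

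RELA (ENSG00000173039, chr11:65653596-65663094) encodes the transactivating subunit of the classical dimer. It read 96.3, 95.1 and 89.0 CPM in C and 98.4, 102 and 103 CPM in I. It read 90.4, 103 and 95.4 CPM in D and 88.1, 114 and 99.5 CPM in DI. All I libraries were above all C libraries, but by little: the log2 fold change was 0.12 (SE 0.101, 95% interval −0.11 to 0.34, adjusted p = 1.00), and with doxycycline the groups overlapped (0.06, SE 0.101). An antisense lincRNA, AP001362.2, overlaps RELA and had at most 80 counts, and the strand setting of the counting is not given in the sources used here.

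REL (ENSG00000162924, chr2:60881521-60931610) and RELB (ENSG00000104856, chr19:45001430-45038198) encode further transactivating subunits, RELB being the partner of the noncanonical route. REL kept within 8.66 to 11.6 CPM over all 12 libraries, and its 95% intervals in the 4 pairwise comparisons ran from −0.33 to 0.47 on the log2 scale. RELB had 13 to 36 counts a library, or 0.643 to 1.86 CPM, and its intervals, −1.26 to 1.20, do not exclude changes of that size.

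NFKB1 (ENSG00000109320, chr4:102501329-102617302) encodes the precursor whose processed form pairs with RELA. Controls read 13.3, 13.4 and 11.97 CPM, and IFNγ alone gave 12.1, 11.9 and 10.6 CPM. The values were 16.7, 11.1 and 13.8 CPM for D, then 15.2, 10.8 and 15.5 CPM for DI. The groups overlapped in both IFNγ comparisons, with log2 fold changes of −0.16 (SE 0.187) and −0.0070 (SE 0.186). NFKB2 (ENSG00000077150, chr10:102394110-102402529) encodes the precursor of the noncanonical route. Controls read 10.1, 14.3 and 14.7 CPM, and IFNγ alone gave 11.3, 14.4 and 17.3 CPM. With doxycycline it read 5.43, 14.9 and 10.7 CPM, or 7.39, 20.5 and 10.4 CPM when IFNγ was added. Here too the groups overlapped, and the spread within a group exceeded any difference between groups (0.14, SE 0.408; 0.30, SE 0.409).

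NFKBIA (ENSG00000100906, chr14:35401511-35404749), the IκBα gene, is the classical early target of the factor it inhibits. Controls read 25.3, 32.4 and 16.9 CPM, and IFNγ alone gave 25.4, 30.2 and 20.3 CPM. With doxycycline it read 29.3, 27.1 and 21.02 CPM, or 31.6, 30.2 and 25.04 CPM when IFNγ was added. The groups overlapped throughout, and the third replicate was the lowest in each of them. The log2 fold change was 0.03 in I vs C (SE 0.235, 95% interval −0.49 to 0.55) and 0.16 in DI vs D (SE 0.235, −0.35 to 0.68).

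NFKBIB (ENSG00000104825, chr19:38899700-38908893), the IκBβ gene, had the lowest p of the 9 tested members. It read 25.3, 21.9 and 26.8 CPM in C and 16.7, 15.2 and 17.5 CPM in I. All I libraries were below all C libraries. The log2 fold change was −0.58 (SE 0.178, 95% interval −0.97 to −0.19), with an adjusted p of 0.209, and an exact two-sided permutation test of the 6 values gave p = 0.1, the smallest that 3 against 3 allows. With doxycycline it read 22.6, 18.4 and 23.8 CPM in D and 19.0, 13.2 and 20.8 CPM in DI, overlapping groups with a log2 fold change of −0.29 (SE 0.178, adjusted p = 1.00). Within same-numbered libraries NFKBIB was lower with IFNγ in 6 of 6 pairs, at 0.660, 0.696 and 0.653 of C and at 0.840, 0.715 and 0.874 of D; 11.3% of all tested genes were lower in all 6 pairs. With the replicate number as a block the fold change in I vs C was −0.58 with an adjusted p of 0.00746, which passes the test, in a fit that called 6.02% of all genes. The difference between the 2 IFNγ effects did not pass the interaction test (0.29, SE 0.252, 95% interval −0.26 to 0.84, adjusted p = 1). SIRT2, a protein-coding gene on the opposite strand, overlaps NFKBIB, and reads in the stretch they share cannot be told apart without strand. How much exon they share was not measured. SIRT2 read 40.6, 40.7 and 37.6 CPM in C and 30.7, 41.6 and 39.7 CPM in I, overlapping groups with a log2 fold change of −0.09 (SE 0.250); its part in the NFKBIB result was not tested.

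NFKBIE (ENSG00000146232, chr6:44258166-44265788) encodes IκBε. Controls read 19.2, 15.6 and 24.8 CPM, and IFNγ alone gave 16.7, 13.8 and 20.4 CPM. With doxycycline it read 12.5, 15.01 and 16.4 CPM, or 13.1, 11.5 and 15.4 CPM when IFNγ was added. With IFNγ the groups overlapped in both comparisons, at −0.23 (SE 0.209) and −0.13 (SE 0.210).

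BIRC3 (ENSG00000023445, chr11:102317450-102339403) encodes cIAP2, a ubiquitin ligase at the tumor necrosis factor receptor. It had 7, 8 and 21 counts in C (0.430, 0.397 and 1.31 CPM) and 28, 24 and 43 counts in I (1.39, 1.31 and 2.25 CPM). It had 3, 15 and 7 counts in D (0.143, 0.776 and 0.405 CPM) and 9, 47 and 15 counts in DI (0.462, 2.41 and 0.676 CPM). C and I touched without overlapping, since the highest C library and the lowest I library were both at 1.31 CPM, and D and DI overlapped. The log2 fold change was 1.21 in I vs C (SE 0.752, 95% interval −0.44 to 2.87, adjusted p = 0.887) and 1.41 in DI vs D (SE 0.771, −0.29 to 3.11, adjusted p = 1.00). Between same-numbered libraries BIRC3 was higher with IFNγ in 6 of 6 pairs, 3.22, 3.29 and 1.72 times C and 3.23, 3.10 and 1.67 times D, and 12.3% of all tested genes were higher in all 6. With the replicate block, which called 4.46% of all genes in DI vs D, BIRC3 passed in neither comparison (adjusted p = 0.312 and 0.379). Single libraries moved these values: I vs C was 1.98 without C 3 and 0.91 without I 3 or C 2, and DI vs D was 0.37 without DI 2, 0.99 without D 1 and 2.104 without D 2.

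TNFAIP3 (ENSG00000118503, chr6:137867188-137883312) encodes A20, which removes activating ubiquitin chains. It had 4, 2 and 3 counts in C and 2, 2 and 2 in I. With doxycycline it had 2, 4 and 0 in D and 1, 4 and 1 in DI, for 27 counts in all. The 0 in D 3 allows a level of up to 0.174 CPM, for counting error only. It did not pass the filter on low counts, and no change with either treatment was detectable at this depth.

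Averaging the IFNγ effect over both arms, a contrast added after these pairs were seen, again gave 0 of 9 members (2 at an unadjusted p under 0.05), in a test that called 3.81% of all genes. NFKBIB was at −0.44 (SE 0.126, adjusted p = 0.108) and BIRC3 at 1.31 (SE 0.538, adjusted p = 0.343). With the replicate block this contrast called NFKBIB (adjusted p = 0.00294) and not BIRC3 (adjusted p = 0.0930), beside 10.9% of all genes.

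The second question was whether doxycycline changed the same transcripts, alone (D vs C) and under IFNγ (DI vs I). These comparisons share their libraries with those above. Again 0 of the 9 tested members passed, where 1.23% (D vs C) and 0.67% (DI vs I) of all tested genes did. With the replicate block 0 passed too, beside 13.9% and 10.5%. The number with an unadjusted p under 0.05 was 0 in both, and DESeq2 called 0 in both, beside 4.56% and 2.99% of all genes. Groups overlapped for all 9 members in both comparisons, while 19.2% and 16.6% of all tested genes had groups that did not. The median log2 fold change of the 9 was 0.04 (D vs C) and 0.10 (DI vs I), beside −0.0012 and −0.0068 over all tested genes.

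**Figure D3:**
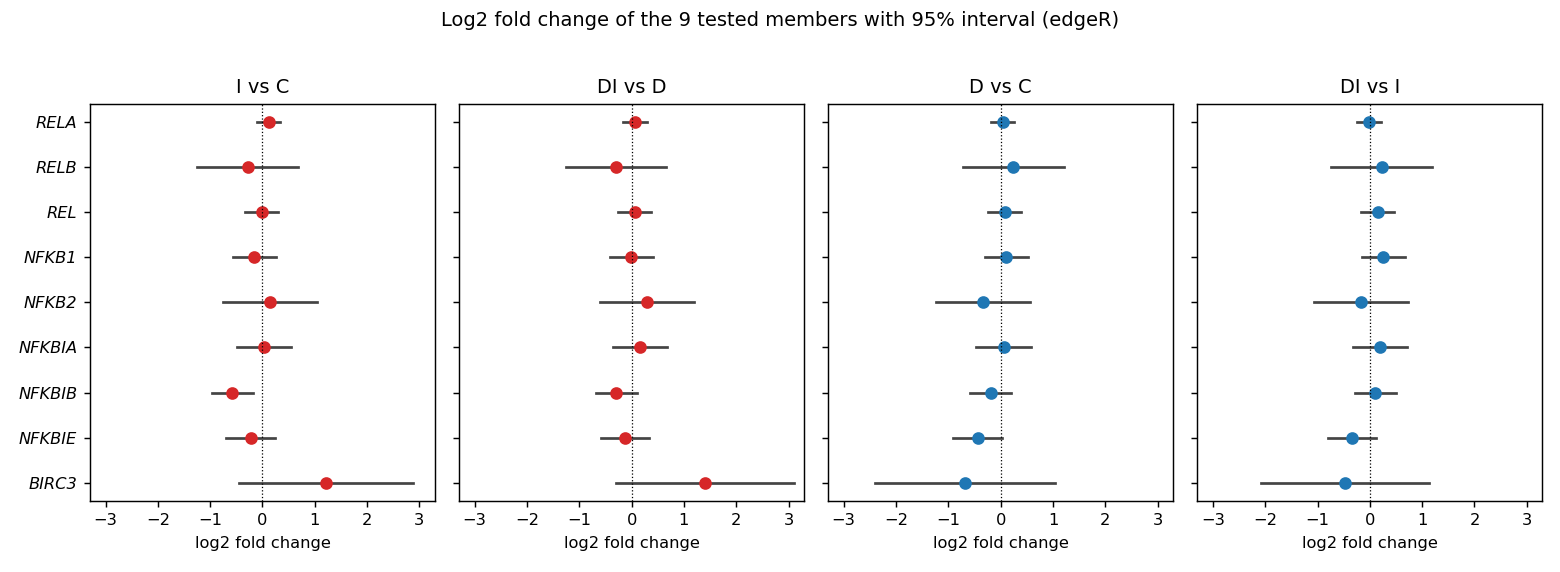
Log2 fold change of the 9 tested members (points) with its 95% interval (lines) from edgeR, in 4 panels for I vs C, DI vs D, D vs C and DI vs I. The intervals of 6 genes stay within 1 log2 unit of 0 in all 4 panels; those of RELB, NFKB2 and BIRC3 are wider.

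NFKBIE had the largest negative difference with doxycycline among the well-counted members, at −0.44 in D vs C (SE 0.210, 95% interval −0.90 to 0.02, adjusted p = 0.375) and −0.34 in DI vs I (SE 0.209, −0.81 to 0.12, adjusted p = 0.577). It was lower in 6 of 6 same-numbered pairs, as were 14.9% of all tested genes, and REL was higher in 6 of 6, as were 13.1%. For REL the log2 fold changes were 0.08 (SE 0.145) and 0.15 (SE 0.144). Averaged over both arms, the NFKBIE difference was −0.39 (SE 0.148, adjusted p = 0.134; 7.68% of all genes called, 0 of 9 members, 1 of them at an unadjusted p under 0.05). With the replicate block it was −0.38 with an adjusted p of 0.0108, in a fit that called 29% of all genes. NFKBIA was at 0.05 (SE 0.235) and 0.19 (SE 0.235), and RELA at 0.04 (SE 0.101) and −0.01 (SE 0.101). BIRC3 was at −0.68 (SE 0.782) and −0.48 (SE 0.728), with groups that overlapped. In same-numbered pairs, replicates 1, 2 and 3, it was 0.332, 1.95 and 0.310 times C in D, and 0.333, 1.84 and 0.300 times I in DI. With single libraries left out, D vs C ran from −1.37 without D 2 to 0.09 without C 3, and DI vs I from −1.52 without DI 2 to −0.10 without DI 1.

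No member passed the interaction test, which asks whether the IFNγ effect differs with doxycycline. Here edgeR called 0 of 15828 genes (0%), with 99 at an unadjusted p under 0.05, none of them a member, and DESeq2 called 1 gene. With the replicate block 374 genes had an unadjusted p under 0.05 and 0 were called. Both numbers are below the share of 0.05 that such a p would give without any effect. The test could therefore hardly call a gene, and the lack of a call says little about the members. The intervals of the interaction term ran from −0.37 to 0.26 for RELA and from −2.11 to 2.50 for BIRC3.

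Over the 4 pairwise comparisons, the 95% intervals of 6 members (RELA, REL, NFKB1, NFKBIA, NFKBIB and NFKBIE) lay within 1 log2 unit of 0. For RELA they ran from −0.24 to 0.34, for NFKBIA from −0.49 to 0.71, and for NFKB1 from −0.57 to 0.67. Those of NFKB2 ran from −1.24 to 1.20, and those of BIRC3 from −2.40 to 3.11.

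Within groups, members varied together, in part by replicate number. NFKB2 was lowest in replicate 1 of all 4 groups and highest in replicate 2 of D and DI. In D and DI, BIRC3 shared that order, and NFKB1 was lowest in replicate 2. The ratio of NFKB2 to NFKB1 counts was 0.759, 1.07 and 1.23 in C and 0.931, 1.21 and 1.64 in I. It was 0.325, 1.34 and 0.774 in D and 0.486, 1.90 and 0.670 in DI, so the doxycycline libraries spread more widely than the others. These ratios are not corrected for gene length and serve only to compare libraries. For NFKBIE to NFKBIA the ratio was 0.762, 0.482 and 1.47 in C and 0.658, 0.457 and 1.00 in I. It was 0.427, 0.553 and 0.780 in D and 0.414, 0.383 and 0.617 in DI. In each group the third replicate had the highest value. After group means were removed, the correlation over the 12 libraries was −0.92 for NFKB1 with NFKB2, −0.93 for NFKB1 with BIRC3, 0.88 for NFKB2 with BIRC3 and −0.94 for NFKBIA with NFKBIE. Genes outside the members, named after their values were seen, spread in the same way. DBH, an adrenergic marker, read 86.0, 371 and 85.6 CPM in D and 79.1, 417 and 108 CPM in DI. TNIP1, a partner of A20, read 57.5, 171 and 39.1 CPM in D and 52.6, 228 and 43.4 CPM in DI. D 2 and DI 2 thus stood apart from the other doxycycline libraries beyond the members. In C, DBH read 265, 442 and 326 CPM and TNIP1 125, 117 and 107 CPM, so D 2 was within the range of C for DBH and above it for TNIP1. D 2 and DI 2 were left out singly, not together. The 4 correlations are the strongest of 36 pairs and are a description, since all values of a library share its depth and preparation. The mitochondrial share in D 1, D 2 and D 3 was 2.18%, 2.08% and 2.08% and does not show the spread of the ratio there; in DI 1, DI 2 and DI 3 it was 4.21%, 2.29% and 1.85%.

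**Figure D4:**
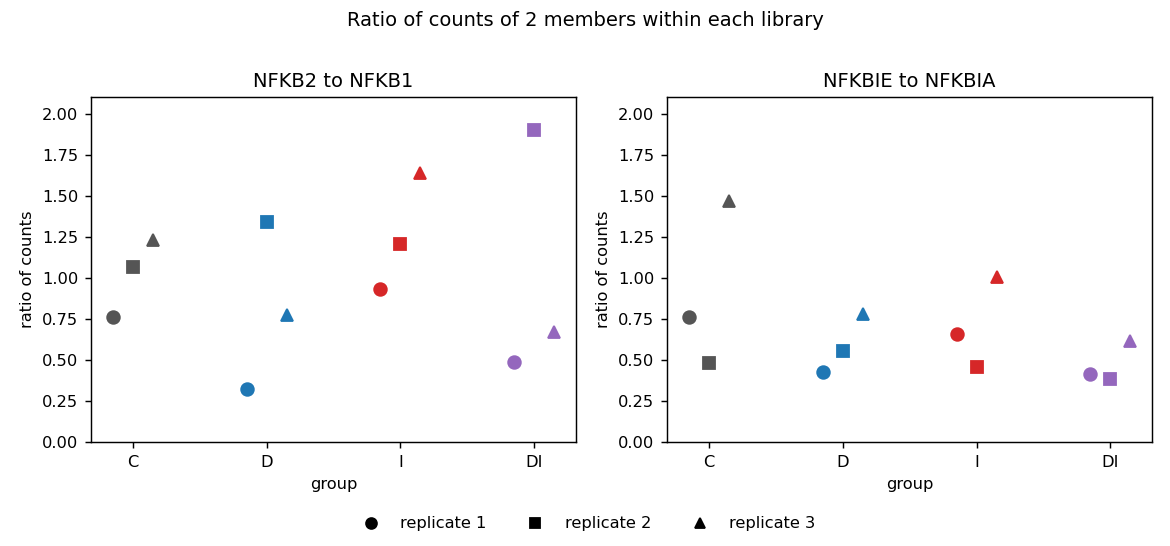
Ratio of counts of NFKB2 to NFKB1 (left) and of NFKBIE to NFKBIA (right) in each of the 12 libraries, by group, with shapes for the replicate number. NFKB2 to NFKB1 runs from 0.325 in D 1 to 1.90 in DI 2, and NFKBIE to NFKBIA is highest in replicate 3 of every group.

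The genes around the members were read from 4 lists: ligands and receptors, kinases and adaptors, atypical IκBs and other regulators, and target genes. Some of these genes rose with IFNγ, as drawn in the plot of the pathway genes, and each gene called was higher with IFNγ; the shares of all tested genes called were 2.21% in I vs C and 1.72% in DI vs D. Whether the lists and the members differ in their response was not tested. Among 24 ligands and receptors, 8 were tested and 1 rose in each arm, TNFRSF1A. Among 30 kinases and adaptors, 29 were tested and 3 rose in I vs C and 1 in DI vs D. Among 19 other regulators, 18 were tested and 1 rose in both arms, CYLD. Of 30 target genes, 15 were tested and 5 rose in I vs C and 3 in DI vs D; 1 further listed target was not analysed here. The median log2 fold changes of the tested genes of the 4 lists, in that order, were 0.65, 0.07, 0.06 and 0.88 in I vs C, and 0.52, 0.12, 0.09 and 0.48 in DI vs D. Over all tested genes the medians were −0.0081 and −0.012. Some tested genes, among them TLR3, IL32 and ICAM1, were at or near 0 without IFNγ and passed the low-count filter through their IFNγ libraries. The filter can therefore push the counts and medians of these lists upward.

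TNFRSF1A, the main receptor for tumor necrosis factor, read 30.6, 30.4 and 22.8 CPM in C and 99.1, 102 and 66.0 CPM in I. With doxycycline it read 32.1, 35.6 and 23.3 CPM in D and 102, 101 and 59.9 CPM in DI. Groups did not overlap, and the log2 fold changes were 1.67 (SE 0.252, adjusted p = 0.00331) and 1.53 (SE 0.251, adjusted p = 0.00701). Without D 1 and DI 1 the value in DI vs D was 1.45 with an adjusted p of 0.126. CD40 and TLR3, receptors of the same list named here after their values were seen, passed in neither arm alone in the fit without a replicate block. CD40 had 0, 0 and 23 counts in C against 208, 161 and 802 in I, and 0, 0 and 13 in D against 170, 82 and 478 in DI (adjusted p = 0.119 and 0.163). TLR3 had 0 counts in all C and D libraries, against 41, 1 and 78 in I and 31, 25 and 73 in DI (adjusted p = 0.140 and 0.163). Groups did not overlap for either gene, and both rose when the IFNγ effect was averaged over the arms (adjusted p = 0.0122 and 0.0216). With the replicate block this averaged contrast gave adjusted p = 8.9e-06 and 0.00449, in a fit that called 10.9% of all genes. The ligands were scarce: TNFSF14, CD40LG and the receptor TLR4 had no count in any library, and 8 of the 24 genes never exceeded 3 counts.

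MYD88, the adaptor of Toll-like and interleukin-1 receptors, read 10.9, 10.3 and 7.85 CPM in C and 26.7, 24.2 and 16.4 CPM in I (1.21, SE 0.243, adjusted p = 0.0238). RNF31 and RBCK1 encode subunits of the linear ubiquitin chain assembly complex, which acts above the IκB kinase. RNF31 read 18.7, 16.6 and 18.7 CPM in C and 32.7, 42.3 and 30.1 CPM in I (0.96, SE 0.185, adjusted p = 0.0176), and RBCK1 40.3, 41.5 and 40.0 CPM in C and 96.7, 97.8 and 101 CPM in I (1.28, SE 0.141, adjusted p = 0.000298). Groups did not overlap for any of the 3. In DI vs D, RBCK1 rose (1.00, SE 0.141, adjusted p = 0.00239; 0.0642 with only the 6 libraries compared), and MYD88 and RNF31 were at 1.00 (adjusted p = 0.0862) and 0.75 (adjusted p = 0.0919); with the replicate block both passed (0.000433 and 0.00874). In I vs C, MYD88 and RNF31 lost their call when C 1, C 2, C 3 or I 2 was left out, MYD88 also without I 1, with adjusted p up to 0.123 and 0.100. MYD88 was also lost with only the 6 libraries compared (0.0504), and RNF31 without D 1 and DI 1 (0.0502). CYLD encodes a deubiquitinase that removes such chains. It read 29.4, 30.9 and 37.0 CPM in C and 65.0, 69.8 and 71.8 CPM in I (1.09, SE 0.113, adjusted p = 0.000186). It read 29.4, 30.2 and 34.3 CPM in D and 50.1, 48.9 and 54.0 CPM in DI (0.70, SE 0.113, adjusted p = 0.00610; 0.117 without D 1 and DI 1, and no call with only the 6 libraries compared). All DI libraries were below all I libraries, a difference of −0.43 (SE 0.112, adjusted p = 0.130) that passed with the replicate block (adjusted p = 0.00612). BCL3, an atypical IκB named here after its values were seen, passed in neither arm of the main fit. It had 7, 11 and 11 counts in C and 67, 74 and 21 in I, then 13, 28 and 6 in D and 38, 74 and 16 in DI. Averaged over both arms its IFNγ effect was 1.87 (adjusted p = 0.0759), or 1.77 with the replicate block (adjusted p = 0.00643).

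**Figure D5:**
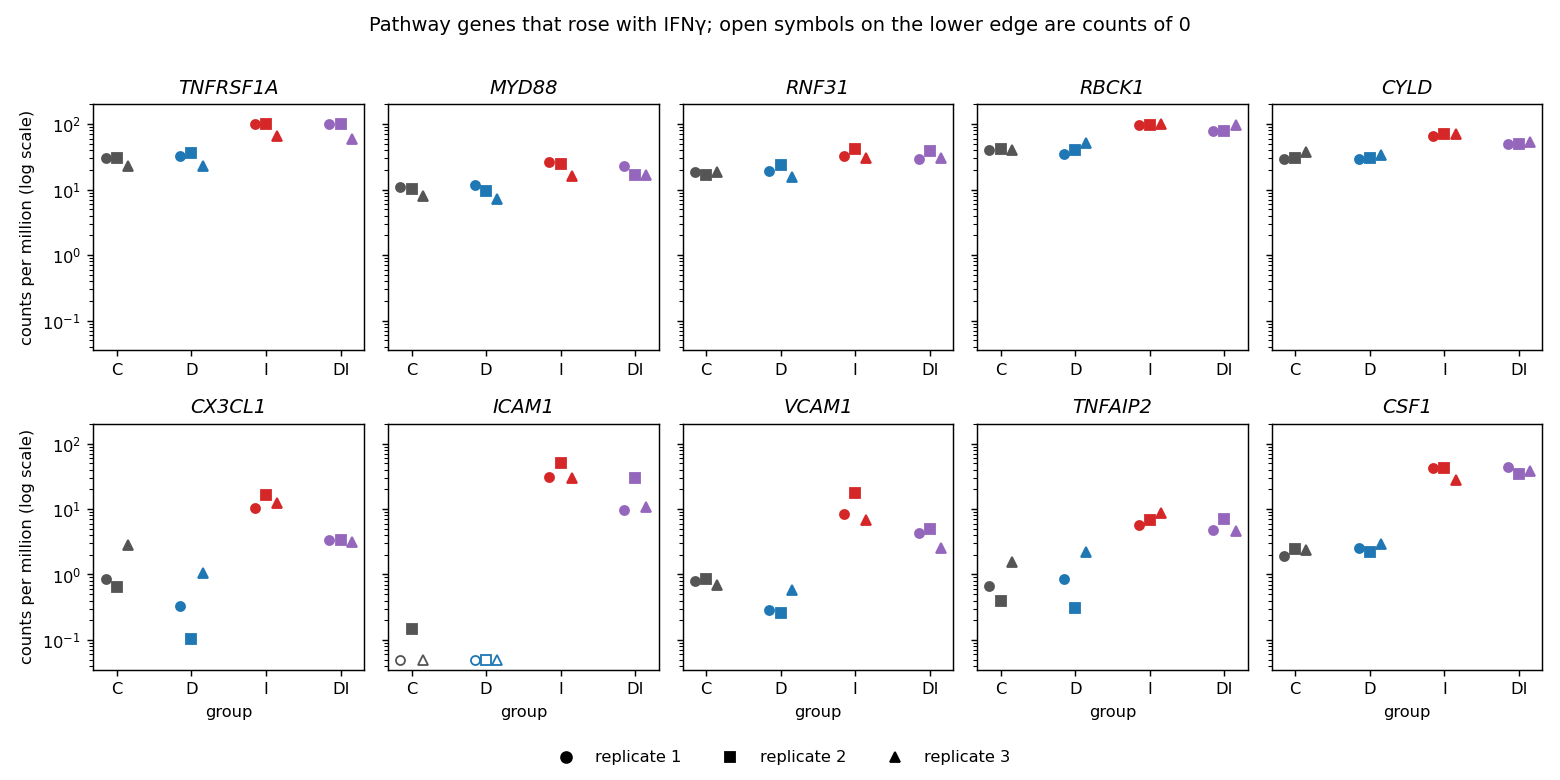
CPM (log scale) of the 10 genes of the 4 pathway lists that rose with IFNγ in at least 1 arm, by group, with a point for each library and open symbols on the lower edge for counts of 0. In all 10 panels the IFNγ libraries lie above the libraries of the same arm without IFNγ.

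Among the target genes that rose were those of adhesion molecules and of a growth factor. ICAM1, a leukocyte adhesion molecule, had 0, 3 and 0 counts in C and 0, 0 and 0 in D, against 617, 914 and 562 with IFNγ alone. With both treatments it had 187, 578 and 239 counts. The ratio of summed, depth-scaled counts was 635 in I vs C (exact 95% interval 217 to 3082, counting error only), and DI was at least 105-fold higher than D when D is set to a floor of 3 counts per library. The call held in both arms (adjusted p = 0.000283 and 0.000503). VCAM1, a further adhesion molecule, read 0.799, 0.844 and 0.686 CPM in C and 8.26, 17.8 and 6.76 CPM in I (3.80, SE 0.466, adjusted p = 0.000700). It read 0.286, 0.259 and 0.579 CPM in D and 4.26, 4.92 and 2.52 CPM in DI (3.37, SE 0.477, adjusted p = 0.00256; 0.0703 without D 1 and DI 1). CSF1, the growth factor of macrophages, read 1.91, 2.43 and 2.37 CPM in C and 42.1, 42.8 and 27.7 CPM in I. With doxycycline it read 2.53, 2.23 and 2.90 CPM in D and 44.3, 34.0 and 37.7 CPM in DI. It rose in both arms (4.06, SE 0.218, and 3.92, SE 0.215; interaction −0.14, 95% interval −0.76 to 0.48).

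CX3CL1, a membrane-bound chemokine, read 0.861, 0.646 and 2.87 CPM in C and 10.3, 16.3 and 12.3 CPM in I (3.16, SE 0.671, adjusted p = 0.0334). TNFAIP2 read 0.676, 0.397 and 1.56 CPM in C and 5.69, 6.82 and 8.65 CPM in I (3.01, SE 0.649, adjusted p = 0.0361). Both calls were lost when C 1, C 2, D 1, I 1, I 2, I 3, DI 1 or DI 3 was left out, with adjusted p up to 0.189 and 0.200. In DI vs D the 2 genes were at 2.75 (adjusted p = 0.111) and 2.30 (adjusted p = 0.157), and both passed with the replicate block (0.0153 and 0.0159). In contrast, 10 of the 30 targets never exceeded 3 counts, and IL6, CCL20, SELE and CSF2 had none in any library.

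With doxycycline, 0 genes of the 4 lists passed in D vs C or DI vs I. In DI vs I, VCAM1 was at −1.49 (SE 0.415, adjusted p = 0.164) and CX3CL1 at −1.97 (SE 0.631, adjusted p = 0.225), in both cases without overlap of the groups, as for 16.6% of all tested genes. Both passed with the replicate block (adjusted p = 0.0212 and 0.0241), as did ICAM1 (−1.28, adjusted p = 0.00948), in a fit that called 10.5% of all genes. Averaged over both arms, the doxycycline effect passed for VCAM1 (−1.27, adjusted p = 0.0367) and CX3CL1 (−1.77, adjusted p = 0.0456), beside 7.68% of all genes. It also passed for BTRC (0.32, adjusted p = 0.0116), TAB3 (0.27, adjusted p = 0.0492) and NFKBID (0.76, adjusted p = 0.0391), which were higher. MAP3K7 passed as well and was lower (−0.58, adjusted p = 0.0268).

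Promoters were at hand for 8 of the 10 pathway genes that rose, not for CSF1 and CX3CL1. The κB pattern was present in 2 of the 8 (VCAM1 and CYLD), the IFNγ-activated sequence in 2 (MYD88 and ICAM1), and the interferon-stimulated element in 4 (VCAM1, MYD88, RNF31 and RBCK1), beside the shares of all genes given above. ICAM1 is printed as the gene with the largest ratio, for the 250 bases before its start (chr19:10270870-10271119, plus strand), with the IFNγ-activated sequence in capitals 75 bases before the start. The stretch ggaaattccg in it differs only in its last base from the κB pattern read on the other strand, and was not counted as a match.
ICAM1: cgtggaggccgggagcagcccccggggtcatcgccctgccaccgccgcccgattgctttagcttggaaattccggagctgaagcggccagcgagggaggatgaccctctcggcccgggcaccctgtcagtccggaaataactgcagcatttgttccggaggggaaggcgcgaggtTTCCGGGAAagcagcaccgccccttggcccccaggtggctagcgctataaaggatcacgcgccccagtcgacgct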

How the data were processed

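Total RNA of 12 SK-N-DZ libraries was sequenced by the submitters (Illumina, paired-end). The authors deposited raw read counts per gene with Ensembl gene IDs and names; aligner, counter, strand setting and genome build are not given in the sources used here. All 43769 IDs were found in GENCODE 29 (GRCh38), which gave positions and exon lengths. The deposited tables of the authors' own comparisons (fold changes and p-values) and 18 columns of per-library values that no label explains were not used.

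Genes with at least 10 counts by edgeR's filter were kept (15828). Counts were scaled by TMM and fitted over all 4 groups with edgeR 4.0.16 (quasi-likelihood test, two-sided, R 4.3.3), with Benjamini-Hochberg adjustment over all tested genes at 0.05; intervals are at 95%. CPM are TMM-scaled to 1000000 counts a library. Alternatives were DESeq2 1.42.0, other scalings and filters, a replicate block, only the compared libraries, each library left out, and, added after seeing the data, leaving out D 1 and DI 1 together and averaging each treatment over both arms. The scripts were tested on simulated counts.

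Replicate numbers come from the sample titles. Same-numbered libraries deviated together from their group means (r 0.338 to 0.804 in 18 pairs, −0.628 to 0.143 in 36 other pairs). The main fit held no replicate term, so its counts of calls, SEs, intervals and adjusted p-values leave this pairing out. The replicate block was an alternative fit, and its values are given where it changes a member's call. No 2 libraries of the same group agreed within sampling noise. The members, the pathway lists and the tests were chosen with earlier results of these data known. Named were all 10 members and the list genes called in a comparison (up to 8 a list); for genes with a pattern like a called member the rule named none, since no member was called. ARID1A and interferon genes served as checks.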

Additional observations from a re-analysis of the deposited data

How the results depend on the processing

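Over all alternatives in the 5 comparisons, 1 of the members' differences changed its call, NFKBIB in I vs C with the replicate block (1 member called, adjusted p = 0.00746); its adjusted p ranged from 0.0790 to 0.634 with 1 library left out. Of 845 alternative values of members, 54 changed sign, none of them with a call. Not among these values is the edgeR block joined with averaging over both arms. It called NFKBIB for IFNγ (adjusted p = 0.00294) and NFKBIE for doxycycline (adjusted p = 0.0108). The block changed no other member's call in a pairwise comparison, and raised the count of all called genes from 350 to 953 (I vs C), 273 to 706 (DI vs D), 194 to 2200 (D vs C) and 106 to 1658 (DI vs I). With DESeq2 these counts were 530, 405, 644 and 452, with only the 6 libraries compared 332, 207, 16 and 0, and without D 1 and DI 1 303, 150, 41 and 51. Scaling by library size alone called 288 in D vs C (199 higher, 89 lower, against 78 and 116) and put the median log2 fold change at 0.085, against −0.0012.

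Counts of called list genes moved as follows. Ligands and receptors in I vs C were 2 with no low-count filter, 2 with DESeq2, 4 with the block, 3 averaged over both arms, and 1 to 2 with a library left out; in DI vs D they were 2, 3 and 3 with DESeq2, block and average, 2 with only the 6 libraries, 0 without D 1 and DI 1, and 1 to 2 with a library left out. Kinases and adaptors in I vs C were 2 with only the 6 libraries or without D 1 and DI 1, 1 at an adjusted p under 0.01 and 1 to 3 with a library left out; in DI vs D they were 3 with DESeq2, 3 with the block, 4 averaged, 0 with only the 6 libraries, and 1 to 2 with a library left out. In D vs C they were 1 (BTRC) with library size alone or DESeq2 and 3 with the block or averaged (BTRC, MAP3K7 and TAB3), and in DI vs I 1 with DESeq2, 4 with the block and 3 averaged. Other regulators in I vs C were 2 with DESeq2 and 3 with the block; in DI vs D 0 with only the 6 libraries or without D 1 and DI 1; in DI vs I 1 with DESeq2 and 3 with the block; and 1 (NFKBID) for doxycycline averaged. Targets in I vs C were 3 at 0.01, 3 without D 1 and DI 1, and 3 to 5 with a library left out; in DI vs D 6 with DESeq2 or the block, 7 averaged, and 3 to 5 with a library left out; in DI vs I 2 with DESeq2 and 3 with the block; and 2 for doxycycline averaged. The causes were not tested.

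RELB, BIRC3 and TNFAIP3 had under 50 counts in every library. In the fit without a replicate block, the intervals of NFKB2 were about as wide as those of RELB. With the block, the SE of the averaged IFNγ effect was 0.166 for NFKB2, against 0.289 without it. For RELB it was 0.311, against 0.310 without the block. Nothing here reads NF-κB protein, its location or its activity.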
